A study of Drosophila melanogaster with 42 samples.

Results

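Lsp2, which encodes a larval serum storage protein, and the yolk protein genes Yp1, Yp2 and Yp3 were followed in the head and thorax of male Drosophila melanogaster from day 5 to day 80. The members were the spots whose only annotated gene symbol was 1 of these 4 names. Each gene had 1 such spot, so 4 of the 19077 units tested are described, a unit being a gene averaged over its spots or a spot without a single gene. The genes were selected on earlier results of the same arrays, in which the log2 ratio of Lsp2 fell steeply with age. The changes of the 4 genes with age are therefore a description, given with no test, whereas the differences between genotypes were tested.

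The series holds 42 two-colour arrays, 21 from Indy206/CS flies and 21 from 2216/CS flies, with 2 or 3 arrays per genotype at each of 8 ages (days 5 and 10, then in steps of 10 days to day 50, and days 70 and 80). Indy206/CS flies are heterozygous for the Indy206 allele over a Canton-S chromosome and 2216/CS flies are the genetically matched heterozygous controls, so every group carries a Canton-S chromosome. Each sample was RNA of 15 pooled males. It was compared with a reference pooled from control RNA of all ages, and values are log2 ratios, likely of sample over reference. A value of 0 equals the reference, and levels of different genes cannot be compared. The comparisons ask how these genes change over adult life and whether the genotypes differ.

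Lsp2 belongs to the hexamerins, proteins related to arthropod haemocyanins and phenoloxidases. The larval fat body secretes them into the haemolymph as a store of amino acids, and Lsp2 is also made by the adult fat body, the insect organ of nutrient storage. Yolk proteins are related to lipases and are made by the female fat body and the ovarian follicle cells. The oocyte takes them up through the receptor Yolkless. Male flies have the same genes, but the male form of the transcription factor Doublesex represses them in the fat body. The gene table used here places Yp1 and Yp2 next to each other and Yp3 elsewhere, beside Rtc1.

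The tissue labels were checked against marker genes. The median of 6 measured photoreceptor markers lay above the reference on every array, between 0.46 and 1.40. The medians of 5 testis markers and 10 accessory gland markers lay below it on all 42 arrays, and that of 21 midgut proteases on 40. Control arrays alone gave testis medians from -3.64 to -1.17 and accessory gland medians from -4.37 to -1.29. A level against the reference is therefore not a level against control head and thorax. Testis and accessory gland medians were lower at day 80 than at day 5 in both genotypes, and the cause was not tested. The targeted gene Indy was lower in Indy206 flies by 0.88 ± 0.064 (SE) on the log2 scale. The arrays of control day 20 replicate 2 and control day 30 replicate 1 correlated least with their own groups, at 0.761 and 0.769 on average. Leaving out both changed no direction or call of the 4 genes in the slopes and in the genotype difference over ages.

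Lsp2 started above the reference and ended below it in both genotypes. In controls the group mean was 1.17 ± 0.40 (SD, n = 2) at day 5 and -2.53 ± 0.97 (SD, n = 3) at day 80, which is 12.9-fold lower. In Indy206 flies it was 2.22 ± 0.55 (SD, n = 2) at day 5 and -1.53 ± 0.56 (SD, n = 3) at day 80, or 13.4-fold lower. The least-squares slope was -0.40 ± 0.088 (SE) per 10 days in controls and -0.62 ± 0.089 (SE) in Indy206. Of all units 25.2% had a called slope over both genotypes, 10.1% rising and 15.1% falling. In whole pieces of tissue, fewer fat body cells, less RNA per cell and a varying part of other tissue cannot be told apart.

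The control arrays show how uneven this course was. At day 5 they gave 1.45 and 0.88, at day 10 -0.01 and 0.27, and at day 20 0.53, 1.97 and 2.15. At day 30 they gave 1.21, 1.84 and 0.62, so through day 30 a single control array, at day 10, lay below the reference. From day 40 the replicates parted: 0.84 and -1.68 at day 40, then -1.40, 1.87 and 1.36 at day 50. At day 70 all control arrays lay below the reference, at -0.74, -0.59 and -1.48. At day 80 they lay lower, at -3.39, -1.48 and -2.70, with 1 array as high as the lowest of day 70.

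In Indy206 flies the early arrays were uniformly high. The values were 2.61 and 1.83 at day 5, 2.42 and 1.71 at day 10, and 1.78 and 1.02 at day 20. At day 30 all Indy206 arrays were below the reference, at -2.39, -0.11 and -1.20, a step of -2.63 between the group means of days 20 and 30. Day 40 did not continue that fall, with 1.44, -1.38 and 1.69. The values were then -2.65, -0.73 and -1.43 at day 50, and -2.26, -2.07 and -4.50 at day 70. At day 80 they were -0.90, -1.98 and -1.69, and every day 80 array lay above every day 70 array.

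**Figure D1:**
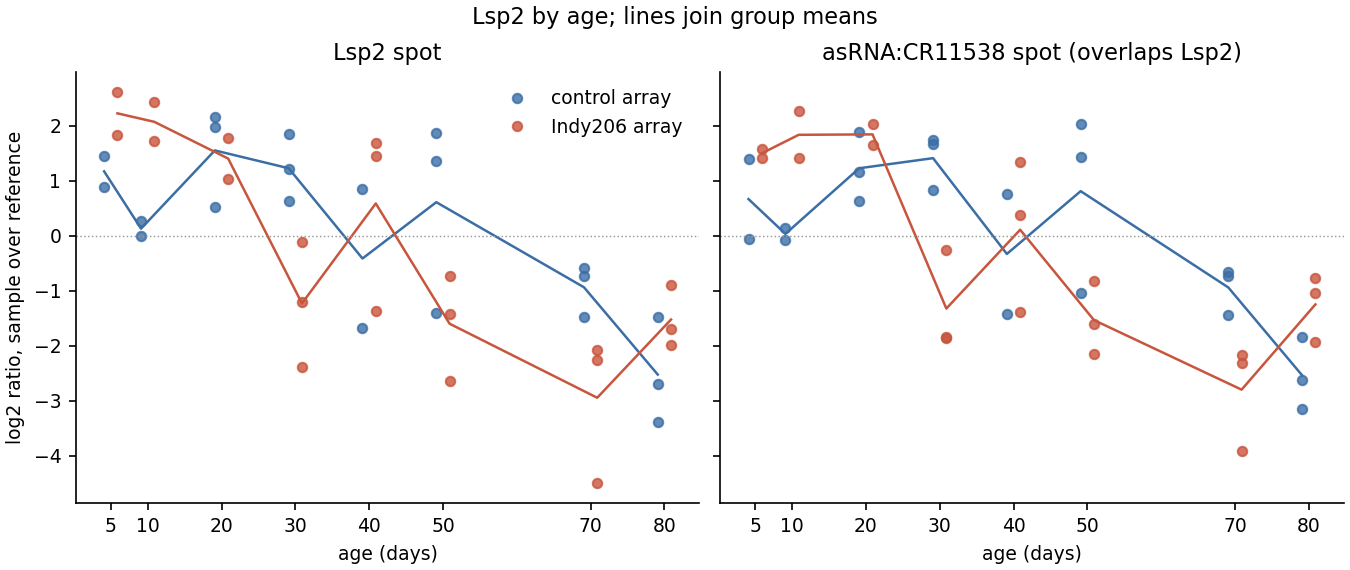
Log2 ratio of sample over reference against age in days for the Lsp2 spot and for the overlapping asRNA:CR11538 spot. Points are arrays (21 control in blue, 21 Indy206 in red), lines join group means; both spots go from above 0 at young ages in most arrays to below 0 at days 70 and 80 in all arrays.

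Lsp2 was among the most variable transcripts in the data. Its 16 group means spanned 5.17 log2 units, and no other unit spanned more, against a median span of 0.45. The spread between replicates was large too, with a residual SD of 1.07 against a median of 0.16 over all units. Only 8 units had a larger residual SD. Ordered by level, the group means ran from Indy206 day 5, Indy206 day 10 and control day 20 at the top to Indy206 day 50, control day 80 and Indy206 day 70 at the bottom. None of the 15 gaps between neighbours in that order exceeded the residual SD. Sorting 16 means makes such gaps small, and the residual SD is a spread of arrays, so the gaps do not show whether groups differ.

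A separate spot covers the Lsp2 locus. It is annotated as asRNA:CR11538, an antisense transcript that overlaps Lsp2 in the gene table, and it is no member. Its group means followed those of Lsp2 more closely than any other gene did, with a Pearson r of 0.98 over the 16 groups, which share arrays and reference with Lsp2. Between replicate arrays the deviations from the group means of both spots also ran together, with r = 0.94 and Spearman rho = 0.93 over 42 arrays. The permutation p was 1e-05 for both, the smallest that 100000 resamples within groups can give (adjusted p = 0.00022 over 22 relations). Without the 2 arrays farthest from the median, r was 0.92. Whether the asRNA:CR11538 spot tells the strands apart is not given in the sources used here, so it may be a second reading of Lsp2 RNA.

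Averaged over ages, the genotypes did not differ detectably in Lsp2. The mean over ages was 0.10 in controls and -0.13 in Indy206. The difference was -0.23 ± 0.32 (SE), with a 95% interval from -0.88 to 0.42 (limma adjusted p = 0.98). At single ages the sign alternated, with the Indy206 mean higher at 4 ages and lower at 4. Indy206 arrays lay wholly above the control arrays at days 5 and 10, by 1.05 and 1.94 on average, and wholly below them at days 30 and 70, with mean differences of -2.46 and -2.01. Such separation was common: the genotypes did not overlap for 37.6% and 32.5% of all units at the first pair of ages and for 7.72% and 12.7% at the second pair. The Lsp2 arrays of the genotypes overlapped at days 20, 40, 50 and 80, where 18.8%, 20.1%, 8.74% and 12.2% of units did not.

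The differences of Lsp2 at days 30, 50 and 70 had intervals that excluded 0 but did not pass the test over all units. At day 30 the difference was -2.46 ± 0.83 (SE), from 1.22 in controls to -1.23 in Indy206 (limma adjusted p = 0.52). At day 50 it was -2.21 ± 0.83 (SE) (limma adjusted p = 0.91), and at day 70 it was -2.01 ± 0.83 (SE) (limma adjusted p = 0.43), or -1.23 without Indy206 day 70 replicate 3. The asRNA:CR11538 spot gave -2.73, -2.34 and -1.86 at the same ages and was not called either (limma adjusted p = 0.26, 0.65 and 0.35). An F test of whether the difference varies among ages gave an unadjusted p of 0.0041 for Lsp2 and an adjusted p of 1.00 (limma). That test called 2 of all units, or 0.0105%. The difference in slope, Indy206 minus control, was -0.22 ± 0.13 (SE) per 10 days (limma adjusted p = 0.83), and without days 5 and 10 it was 0.095.

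The log2 ratios of the yolk protein genes moved far less than that of Lsp2. Signal over background was not analysed here, so flat ratios near 0 do not show that these genes were expressed. Yp1 stood slightly below the reference, at -0.17 ± 0.24 (SD, n = 21) in controls and -0.19 ± 0.34 (SD, n = 21) in Indy206, and Yp2 at it, at -0.028 ± 0.15 and 0.0048 ± 0.17. Yp3 lay above the reference on 21 of 21 control arrays and 20 of 21 Indy206 arrays, at 0.22 ± 0.15 and 0.12 ± 0.13. The slopes of the means of both genotypes were near 0, at 0.0052 ± 0.013 (SE) per 10 days for Yp1, -0.0015 ± 0.011 for Yp2 and 0.0082 ± 0.0085 for Yp3. For Yp1 and Yp3 these means join slopes of opposite sign. Yp1 had 0.040 ± 0.018 (SE) in controls and -0.029 ± 0.019 in Indy206. Yp3 had 0.025 ± 0.012 (SE) in controls and -0.0084 ± 0.012 in Indy206. Yp2 had 0.00092 ± 0.015 (SE) and -0.0038 ± 0.015. The group means of Yp2 spanned 0.29 log2 units and those of Yp3 0.36, both below the median span of all units, and those of Yp1 spanned 0.90.

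Yp1 was lowest in a single group of each genotype. In controls the low group was day 10, with arrays at -0.66 and -0.84, whereas the 19 other control arrays lay between -0.48 and 0.09. In Indy206 flies the low group was day 70, at -0.58, -0.55 and -1.06. Outside it, 1 Indy206 array, at day 10, was as low, at -0.77, while its replicate stood at 0.15. The control means at days 5, 10 and 20 were -0.069, -0.75 and -0.13, and the Indy206 means at days 50, 70 and 80 were -0.053, -0.73 and 0.0036. In the order of group means, control day 10 and Indy206 day 70 lay next to each other, and the step up to the next group was the 1 gap of 15 that exceeded the residual SD of 0.22.

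Yp2 had slopes near 0 in both genotypes. Its arrays ran from -0.29 to 0.27 in controls, with a median of -0.015, and from -0.38 to 0.39 in Indy206, with a median of -0.0035. The genotypes overlapped at all 8 ages, and no gap between neighbouring groups exceeded the residual SD of 0.17. At day 50 replicate 3 was the highest array in both genotypes, at 0.27 in controls and 0.37 in Indy206, with the others between -0.29 and -0.13.

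The order of the genotypes varied with age for Yp3, with no difference passing the test: its Indy206 arrays lay above the control arrays at days 5 and 10, below them at days 30 and 80, and overlapped them at the other ages. Control arrays gave 0.01 and 0.02 at day 5, 0.17 and 0.15 at day 10, and 0.26, 0.40 and 0.41 at day 30. They remained above the reference at day 70, at 0.10, 0.59 and 0.13, and at day 80, at 0.37, 0.34 and 0.20. Indy206 arrays gave 0.09 and 0.09 at day 5, 0.26 and 0.20 at day 10, -0.25, 0.02 and 0.22 at day 30, and 0.03, 0.04 and 0.04 at day 80. For comparison, 37.6%, 32.5%, 7.72% and 12.2% of all units did not overlap at days 5, 10, 30 and 80.

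**Figure D2:**
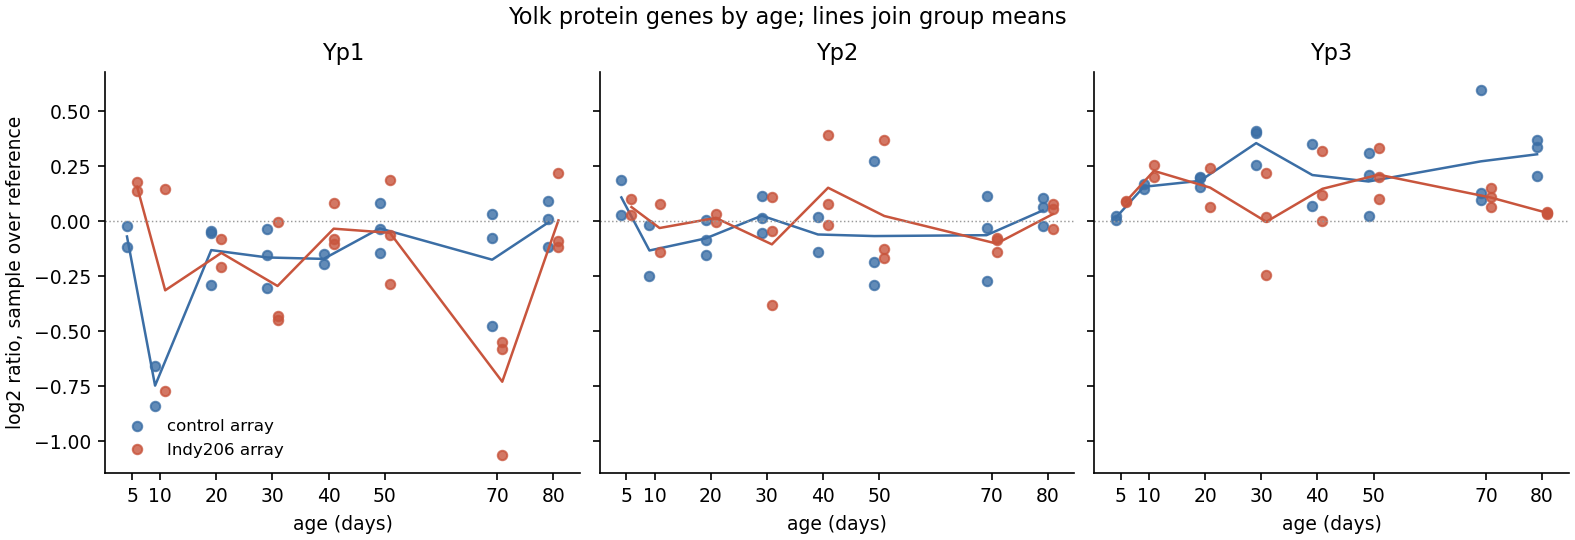
Log2 ratio of sample over reference against age in days for Yp1, Yp2 and Yp3, on a shared axis. Points are arrays (21 control in blue, 21 Indy206 in red) and lines join group means; Yp1 dips at day 10 in controls and day 70 in Indy206, Yp2 stays around 0 and Yp3 lies above 0 on all but 1 array.

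None of the 4 genes passed the limma test for a genotype difference over ages, against 0.351% of all units called. Before adjustment 1 of them, Yp3, had a limma p just under 0.05, as did 6.59% of all units. Yp1 differed by 0.011 ± 0.066 (SE), with an interval from -0.12 to 0.15, and Yp2 by 0.034 ± 0.054 (SE), with an interval from -0.076 to 0.14 (limma adjusted p = 1.00 and 0.98). For Yp3 the control mean over ages was 0.21 and the Indy206 mean 0.12. Its difference of -0.088 ± 0.043 (SE) had an unadjusted p of 0.049995 and an adjusted p of 0.76 (limma).

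At single ages, 0 of 32 differences (4 genes at 8 ages) passed the test, and 7 had an unadjusted p under 0.05 in limma, which 3.08% to 9.28% of all units had at single ages. From the youngest to the oldest age, the share of all units called was 0%, 0.00524%, 0%, 0.0472%, 0.0681%, 0.0157%, 0.136% and 0.0315%. The smallest adjusted p was that of Yp1 at day 70, where Indy206 was lower by 0.56 ± 0.17 (SE) and no Indy206 array reached the controls, as for 12.7% of all units (limma adjusted p = 0.24). Yp1 was higher in Indy206 at day 10 by 0.43 ± 0.21 (SE) (limma adjusted p = 1.00), a value that was -0.027 without Indy206 day 10 replicate 2 and 0.89 without replicate 1. Yp3 was lower at day 30 by 0.36 ± 0.11 (SE) and at day 80 by 0.27 ± 0.11 (SE) (limma adjusted p = 0.50 and 0.76), and the day 30 value was -0.24 without Indy206 day 30 replicate 1.

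The slopes of the yolk protein genes did not differ detectably between genotypes. The difference was -0.069 ± 0.026 (SE) per 10 days for Yp1, -0.0048 ± 0.021 for Yp2 and -0.033 ± 0.017 for Yp3 (limma adjusted p = 0.83, 0.99 and 0.83). The Yp1 value was -0.044 without Indy206 day 10 replicate 2, -0.094 without replicate 1 of that group and -0.038 without days 5 and 10. No unit was called in this comparison (0% of 19077), with 1065 units at an unadjusted p under 0.05 in limma, Yp1 among them.

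**Figure D3:**
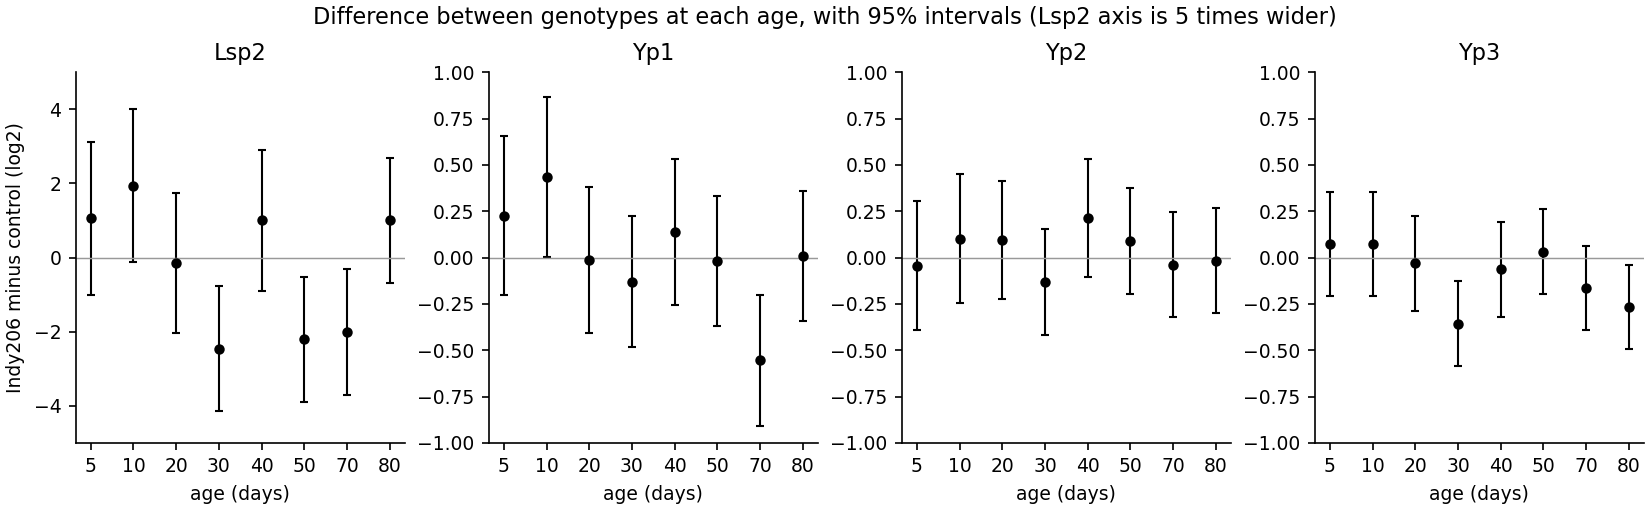
Indy206 minus control (log2) at each age in days for Lsp2, Yp1, Yp2 and Yp3. Points are fitted differences, bars are 95% intervals from the model of all 42 arrays, and the Lsp2 axis is wider than the others; at days 30, 50 and 70 the Lsp2 intervals lie below 0, as do those of Yp1 at day 70 and of Yp3 at days 30 and 80, that of Yp1 at day 10 lies above 0, and no difference passed the adjusted test.

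A further spot holds both Yp3 and its neighbour Rtc1 and is no member. It rose with age by 0.043 ± 0.0079 (SE) per 10 days (limma adjusted p = 0.00013), whereas the Yp3 spot had a slope of 0.0082. Its genotype difference was 0.030 and that of the Yp3 spot -0.088, neither called. The deviations of both spots between replicate arrays had r = 0.46 and rho = 0.38 (permutation adjusted p = 0.13 and 0.15 over 22 relations), and r was 0.26 without the 2 arrays farthest from the median. The share of each gene in the signal of that spot is not given in the sources used here.

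Between replicate samples of the same genotype and age, Yp2 and Yp3 moved together. The deviations of the 42 arrays from their group means gave r = 0.63 and rho = 0.54 (permutation within groups, 100000 resamples, adjusted p = 0.032 and 0.043 over 6 pairs). The 2 arrays farthest from the median of Yp2 were day 50 replicate 3 of both genotypes. Without them r was 0.60, and with any single array left out it was at least 0.56. Yp2 and Yp3 also had r of 0.50 and 0.52 with the median of the midgut proteases (permutation adjusted p = 0.070 and 0.051 over 22 relations). Whether the relation of Yp2 and Yp3 is particular to them or shared by many genes of an array was not tested. The permutation treats the groups as independent, so its p-values make no allowance for a shared origin of same-numbered replicates. Lsp2 and Yp1 gave r = 0.34 and rho = 0.43 (adjusted p = 0.089 and 0.043), and Lsp2 and Yp3 r = 0.42 and rho = 0.44 (adjusted p = 0.089 and 0.065). For the neighbours Yp1 and Yp2 r was 0.35 and rho 0.30 (permutation adjusted p = 0.13 and 0.19). The remaining pairs had r of 0.31 (Lsp2 and Yp2) and 0.20 (Yp1 and Yp3), with adjusted p of 0.24 and 0.34. Over the 16 group means, r was 0.69 for Yp1 with Yp2 and between -0.037 and 0.28 for the other pairs.

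Of 5 marker lists, those of the midgut and the fat body moved with Lsp2 between replicate arrays, and those of the testis, accessory gland and ovarian follicle cells did not pass the test. The deviations of Lsp2 ran with the median of the 21 midgut proteases, r = 0.73 and rho = 0.70 (permutation adjusted p = 0.0031 and 0.0043 over 22 relations). They also ran with the median of 8 fat body genes, r = 0.64 and rho = 0.60 (permutation adjusted p = 0.0066 and 0.013). Without the 2 arrays farthest from the median of Lsp2, r was 0.68 and 0.59. For testis markers r was -0.042, for accessory gland markers 0.14 and for ovarian follicle cell markers 0.12 (permutation adjusted p = 0.86, 0.67 and 0.74). For the yolk protein genes no relation with these 5 lists passed on Pearson's r. Yp2 with the follicle cell markers, at r = 0.52 and rho = 0.51 (permutation adjusted p = 0.051 and 0.047), and Yp3 with the midgut median, at r = 0.52 and rho = 0.46 (permutation adjusted p = 0.051 and 0.092), came closest.

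The midgut list also changed with age as Lsp2 did. Of its 21 measured genes 19 fell and none rose, and its array medians ran from -2.04 to -0.031 in controls and from -2.52 to 0.36 in Indy206. At day 30 its mean level was -0.45 in controls and -1.18 in Indy206, and at day 10 it was -1.39 and -0.052. The higher genotype was the same as for Lsp2 at both ages. At day 20 the order was opposite, at -0.34 and -0.19 for the list and 1.55 and 1.40 for Lsp2. The remaining ages had the same order as Lsp2, narrowly at day 80 with -1.47 and -1.43. With the midgut median as a covariate, the Lsp2 slope was -0.24 per 10 days in place of -0.51. The midgut median itself fell, from -0.17 at day 5 to -1.47 at day 80 in controls. A covariate that falls with age can shrink any falling slope, so this value cannot tell midgut RNA from a shared fall. Over all units, those with a called slope numbered 1609 with this covariate in place of 4798. With the midgut covariate the genotype difference of Lsp2 was 0.60 at day 5 in place of 1.05 and -0.057 at day 10 in place of 1.94. At day 30 it was -1.37 in place of -2.46. The Lsp2 difference at day 50, -2.21 in the main fit, lay between -3.21 and -1.58 in all alternative runs. With the testis and accessory gland median as covariate the Lsp2 slope was -0.54, and 1870 units had a called slope. The part of midgut RNA in the Lsp2 values was not tested. The mean level of the fat body list was -0.30 at both day 5 and day 80 in controls, with its highest group mean, 0.044, at day 50. In Indy206 it was -0.36 at day 5 and -0.34 at day 80, with 0.083 at day 20 and -0.57 at day 70.

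**Figure D4:**
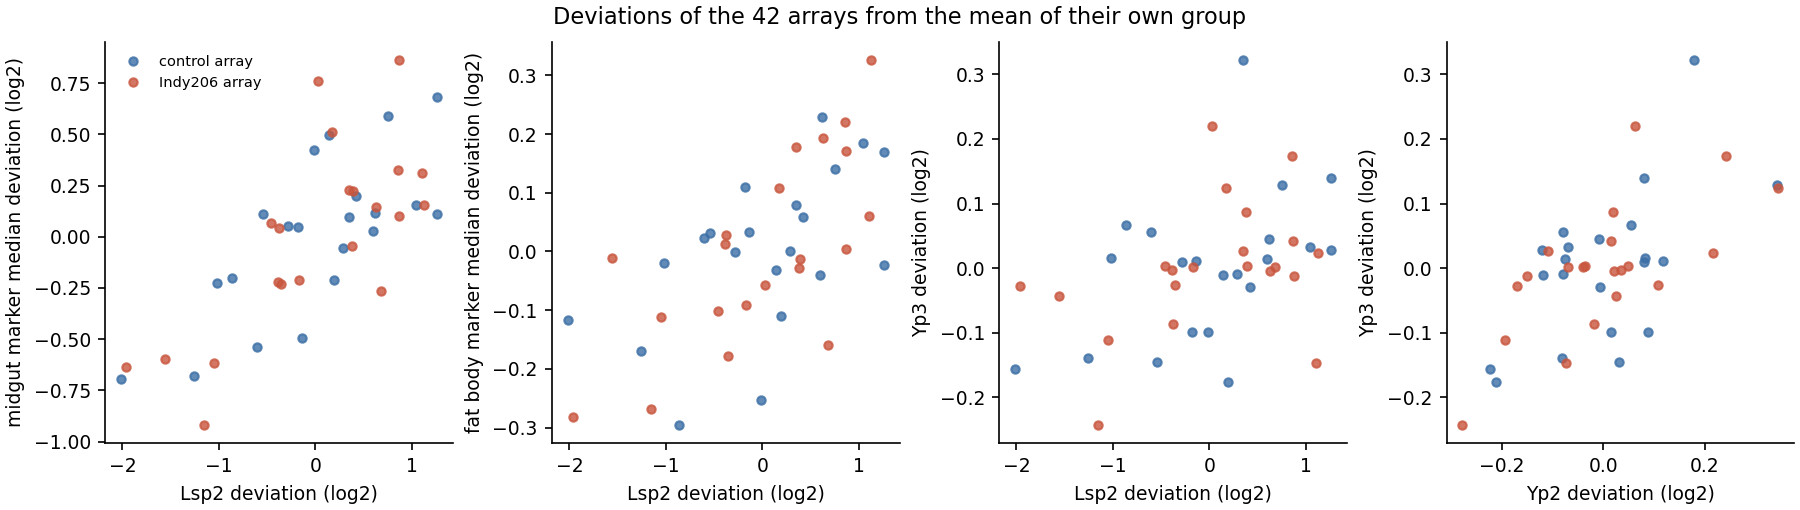
Deviations (log2) of the 42 arrays from the mean of their own group, with Lsp2 on the x axis against the midgut marker median, the fat body marker median and Yp3, and Yp2 against Yp3 in the last panel. Points are arrays (control blue, Indy206 red); arrays low in Lsp2 for their group are also low in the midgut median (r = 0.73).

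The phenoloxidase genes, relatives of Lsp2, fell with age, and the 2 measured genes of the larval storage list were not called. The storage protein genes Lsp1alpha, Lsp1beta and Lsp1gamma of that list were not measured, so nothing can be said of them. The genes measured were Fbp1, which encodes a larval fat body protein involved in hexamerin uptake, and Fbp2. Neither passed the age test, at -0.019 and 0.0071 per 10 days (limma adjusted p = 0.062 and 0.59). The phenoloxidase genes PPO1 and PPO2, hexamerin relatives that act in melanization, both fell, by 0.24 ± 0.039 (SE) and 0.16 ± 0.025 (SE) per 10 days (limma adjusted p = 1.8e-05 for both). Over all units 15.1% fell and 10.1% rose with age, which is the background for the list counts here and below. Of 20 measured genes of the lipase family to which yolk proteins are related, 7 fell, 2 rose and 11 were not called, with a median slope of -0.028 against -0.0031 for all units. Among them sxe2, a gene of the male head, fell by 0.20 ± 0.021 (SE), CG5162 by 0.14 and CG17192 by 0.17, and CG4267 rose by 0.070.

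Among regulators of the yolk genes, dsx fell slightly and no enhancer-binding factor was called. The measured factors srp, slbo and Aef1, which bind yolk gene enhancers, had slopes between -0.0063 and 0.0063 per 10 days, and none of the 3 was called. Of 6 sex determination genes 1 fell and 1 rose. The gene that fell was dsx itself, by 0.055 ± 0.011 (SE) (limma adjusted p = 0.00024), and msl-2, a male dosage compensation gene, rose by 0.025 ± 0.0088 (SE) (limma adjusted p = 0.035). Of 11 ecdysone and juvenile hormone genes 3 fell and none rose. These were Jheh2, a juvenile hormone epoxide hydrolase gene, by 0.12 ± 0.011 (SE), the nuclear receptor gene Hr3 by 0.023 and the juvenile hormone esterase gene Jhe by 0.028. The receptor genes EcR and usp were not called, at -0.0082 and 0.0045.

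Genes of lipid transport, storage and nutrient sensing were mixed. Of 5 lipid transport genes 1 rose, 2 fell and 2 were not called, among the last apolpp, which encodes the main lipoprotein of the haemolymph, at -0.0039 ± 0.069 (SE). Of 8 fat body genes 3 rose and 3 fell, led by Gnmt, a glycine methyltransferase gene, at 0.14 ± 0.036 (SE) and tobi, an alpha-glucosidase gene, at -0.21 ± 0.026 (SE) (limma adjusted p = 0.0033 and 2.7e-07). Of 6 nutrient sensing genes 2 fell, the amino acid transporter genes slif by 0.033 and mnd by 0.051. Of 4 measured genes known for a sex bias in the fat body or head 2 fell with age and none rose, Cyp4d21, a cytochrome P450 gene of the male head, by 0.21 ± 0.020 (SE) and sxe2 as above. Cyp4d21 was also lower in Indy206 by 0.59 ± 0.10 (SE) (limma adjusted p = 0.0022), and no other gene of the lists was called by genotype.

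Follicle cell markers lay close to the reference, and female germline genes were mixed. The yolk receptor gene yl was not called, at -0.0090 ± 0.011 (SE) per 10 days. Of 11 vitelline membrane, chorion and other follicle cell genes 2 fell and 1 rose, and the median slope was -0.017. The array medians of this list lay between -0.11 and 0.26 in controls and between -0.053 and 0.19 in Indy206. Of 6 measured female germline genes 2 fell and 1 rose. The gene exu, which encodes a protein that localizes RNA in the oocyte and also acts in the male germline, fell by 0.14 ± 0.038 (SE) per 10 days (limma adjusted p = 0.0078), from -2.19 at day 5 to -3.64 at day 80 in controls. The ovarian gene otu fell by 0.032 and grk, which encodes a ligand of the epidermal growth factor receptor, rose by 0.042.

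**Figure D5:**
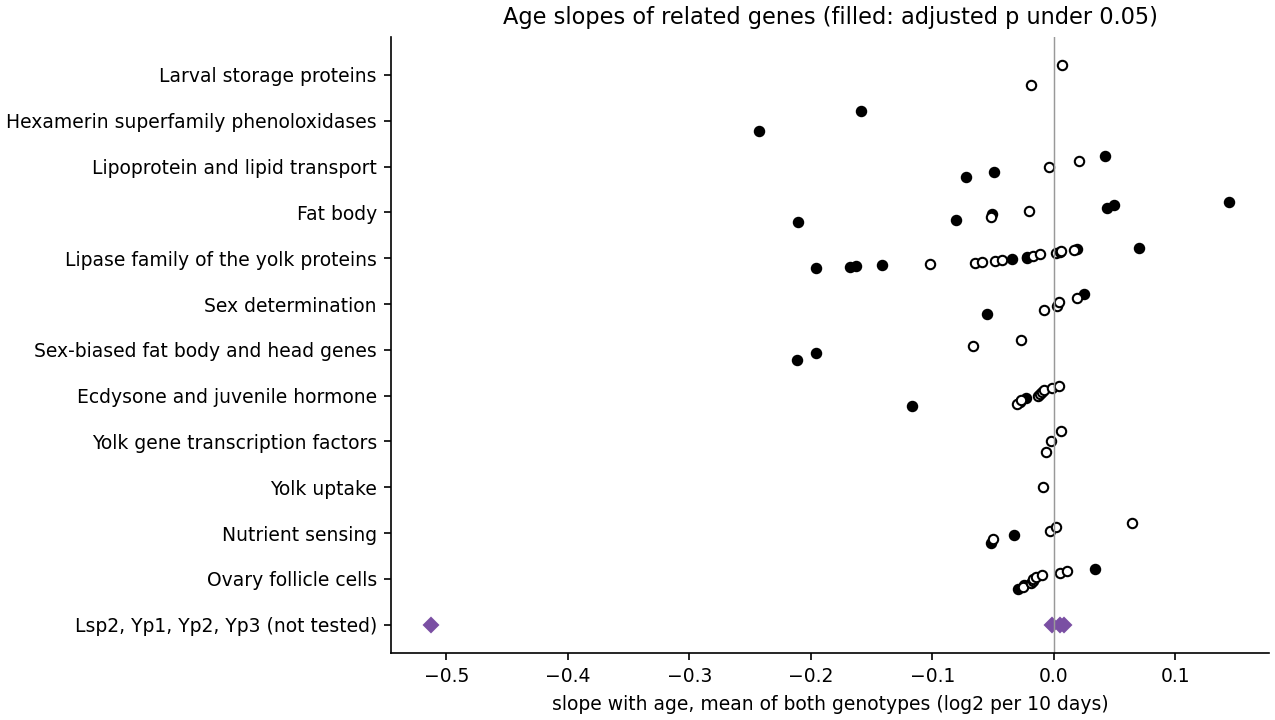
Slope with age (log2 per 10 days, mean of both genotypes) for the measured genes of 12 related lists, 1 point per gene, filled where the adjusted p was under 0.05. Diamonds in the bottom row are Lsp2, at -0.51 and far to the left of every gene drawn, and Yp1, Yp2 and Yp3 near 0, which were not tested. Marker lists of other tissues are not drawn and hold slopes closer to that of Lsp2, such as -0.46 for Mst98Cb of the testis list.

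Over the 16 groups the course of Lsp2 was shared most closely by genes with far smaller changes. After asRNA:CR11538 the closest were colt, a mitochondrial carnitine carrier gene (r = 0.95), CG14823 (r = 0.95), CG10947 (r = 0.93), the glycolytic gene Pgi (r = 0.93) and the zinc transporter gene ZnT77C (r = 0.92). Their group means spanned between 0.77 and 1.28 log2 units, against 5.17 for Lsp2. The most opposite were the sugar receptor gene Gr5a (r = -0.93), the engulfment receptor gene drpr (r = -0.93), CG5399 (r = -0.93), Idgf3 (r = -0.93), the splicing factor gene Sf3b3 (r = -0.92) and Tsp42Ed (r = -0.91). For the mean of the yolk protein genes, which mostly follows Yp1 (r = 0.94), the closest genes were CG5681 (r = 0.83), CG9270 (r = 0.82) and CG5645 (r = 0.79). CG11698, msb1l and Alp9 came next, at 0.77, 0.77 and 0.76. These correlations are over 16 group means from the same arrays and reference and describe likeness of pattern.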

How the data were processed

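The authors deposited 1 log2 ratio for each spot of each array, made with limma per the submitters' processing notes. Per the labels, fly samples were in Cy5 and the pooled reference in Cy3. Background correction, normalization within arrays, log base and direction are not stated in what was used here. Base 2 and sample over reference are limma's convention and are called likely. Array medians ran from -0.014 to 0.0019, so no further normalization was applied.

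Spots were named from the platform annotation (10828 with 1 gene, 227 with several, 8945 with none paired here), and spots of 1 gene were averaged. All 19077 units were fitted with a mean for each of the 16 groups (R 4.3.3, limma 3.58.1, lmFit then eBayes, 26 residual degrees of freedom). Within each contrast the Benjamini-Hochberg adjustment ran over all units, and adjusted p-values under 0.05 were called. The number of arrays limits the precision, and p-values measure the spread between pools of flies. The members, gene lists and tests were chosen with earlier results of these data known. Genes named are members, Indy, list genes and the 6 most like or opposite in pattern by Pearson correlation of group means. The F test among ages and the relations with marker medians were added after seeing the data. The model was tested on simulated data. Control day 70 replicate 3 carries another replicate number in 1 label, and its title was used. Protein and promoter sequences were not analysed here.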

Additional observations from a re-analysis of the deposited data

How the results depend on the processing

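None of the 4 genes was called for genotype over ages or for the difference in slope under any alternative run, leaving out each array included. Lsp2 differed by -0.39 to -0.071 over ages with single arrays left out (-0.071 without control day 40 replicate 1) and by -0.80 to -0.12 under the other alternatives. Its slope ran from -0.53 to -0.49 per 10 days with single arrays left out. Signs turned in several values, and the cause was not tested. At single ages, the Lsp2 difference of 1.94 at day 10 was -0.057 with the midgut covariate, that of 1.00 at day 40 was -0.26 without control day 40 replicate 2, and the Yp1 difference of 0.43 at day 10 was -0.027 without Indy206 day 10 replicate 2. The Yp1 difference over ages was -0.020 without day 5, -0.095 without days 5 and 10, and from -0.046 to 0.069 with single arrays left out. The Lsp2 difference in slope was 0.095 without days 5 and 10. That of Yp2 was 0.00058 on log2 of day (rescaled to the same span of days), 0.015 with the midgut covariate and from -0.011 to 0.0016 with single arrays left out.

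The labels do not say that a replicate number marks a shared origin. Of 19 same-numbered pairs of the genotypes, 13 had deviations correlated over 0.1 (median 0.12, from -0.35 to 0.61), against a median of -0.092 for 37 other pairs. Deviations sum to 0 within a group, so the other pairs lean to the opposite sign and are no independent comparison. At day 10, with 2 arrays per genotype, both same-numbered pairs hold the same value, 0.10. The values are at most a weak hint of pairing, highest at day 50, and not every pair shows it. With replicate number as a block, the counts were 69 units for genotype over ages (67 without it), 57 at single ages (58), 4761 for age (4798) and 0 for the difference in slope, and no call of the 4 genes changed. Counts of units at single ages were 148 with quantile normalization, 123 with array quality weights, 2 with each age fitted alone and 39 to 163 with single arrays left out. The highest was without control day 70 replicate 3, and 6 other arrays, Indy206 day 20 replicate 2, day 30 replicate 3 and day 70 replicate 1 and control day 10 replicates 1 and 2 and day 40 replicate 1, also moved it by over 1.5 times. The difference in slope was called in 4 units with array quality weights and in 0 to 23 with single arrays left out, most without control day 10 replicate 1. Units changing with age numbered 1870 with the testis and accessory gland covariate, 1609 with the midgut covariate, 2938 without day 5 and 2662 without days 5 and 10. They split into 1926 rising and 2872 falling units, or 2385 and 2457 with quantile normalization, 1511 and 1427 without day 5, 1336 and 1326 without days 5 and 10, and 1042 and 828 with the testis and accessory gland covariate and 900 and 709 with the midgut covariate. The F test among ages called 1 unit with 1-gene spots, without day 5, without days 5 and 10, with the midgut covariate or without the 2 arrays that stand apart, and 0 to 36 with single arrays left out. Signal over background was not analysed here. The covariate of midgut markers and the loss of 2 arrays together were chosen after seeing the data.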

Other observations

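Among 9901 genes that are not members, those whose deviations from the group means ran most closely with Lsp2 over the 42 arrays were asRNA:CR11538 (r = 0.94), the glucuronosyltransferase gene Ugt37B1 (r = 0.88) and the serine protease gene Jon99Ci (r = 0.82). The lipase family genes CG6295 (r = 0.77), CG6283 (r = 0.76) and CG17192 (r = 0.73) were among the next, with Ance-5 (r = 0.77), Jon99Cii (r = 0.75), CG13775 (r = 0.75) and the transferrin gene Tsf1 (r = 0.73). The most opposite were CG12118 (r = -0.65), the mucin gene Muc55B (r = -0.65), Acbp6 (r = -0.63) and the maltase gene Mal-A1 (r = -0.61). These genes were chosen after their values were seen, from the same arrays, and the correlations are a description with no test.

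Several of these genes are themselves variable between replicates. Residual SDs were 0.98 for Jon99Ci, 0.94 for CG6283, 0.93 for Jon99Cii and 0.81 for CG17192, against 0.32 for Ugt37B1 and 0.33 for Tsf1.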
